A study of Spodoptera frugiperda with 6 samples.

Results

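The miR-279 family of the fall armyworm Spodoptera frugiperda had 4 members in the larval small RNA libraries, namely bmo-miR-279a, sfr-miR-279a-5p, sfr-miR-279b-5p and sfr-miR-279c-5p. The members were found by name, as every entry of the count table whose miRBase name is miR-279 with any letter suffix, arm or species prefix. They made up 4 of the 172 entries and 4 of the 128 distinct mature sequences of the table. Unlike 41 of the distinct sequences, which the table lists for more than 1 precursor, each of the 4 was listed for a single precursor. The prefix bmo marks a name taken from the silkworm Bombyx mori, and sfr a name of S. frugiperda itself. The libraries came from whole larvae of an insecticide-resistant strain (3 libraries) and a susceptible strain (3 libraries), each a pool of 100 larvae aged 3 to 5 days with no insecticide treatment named for them. The study tested both strains with the diamide insecticide chlorantraniliprole, and the resistant strain had the lower mortality, at a higher dose. The resistant strain came from a university laboratory and the susceptible strain from a commercial one. Resistance and any other difference between the colonies therefore cannot be told apart. Every direction given below rests on the strain label of each library, and those labels are in doubt. For every miRNA that the study lists as changed, sfr-miR-10460-5p among them, the sign computed from the counts by label is the reverse of the printed one. Whether the labels or the printed signs are the wrong way round was not tested. If the labels are, every difference between strains given here is inverted, while levels, shares and ratios within a library stand.

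MicroRNAs are short RNAs that guide Argonaute proteins to messenger RNAs, and they find their targets mainly through the seed, bases 2 to 8 from the 5′ end. One hairpin precursor can give a product from either arm, and usually a single arm dominates. In Drosophila, miR-279 and its seed-sharing neighbour miR-996 keep carbon dioxide-sensing neurons from forming on the maxillary palps and act in the development of bristle sense organs. Drosophila miR-279 also acts through the JAK/STAT pathway in border cell migration and in the daily rhythm of rest and activity. These roles are known from Drosophila and not from these larvae.

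All 4 members carried the same seed, GACUAGA, and differed only behind base 9. The mature sequences are shown with the seed in capitals, because the shared seed is what makes them 1 family and the remaining bases are what tells their counts apart.
bmo-miR-279a: uGACUAGAuccacacucaucca
sfr-miR-279a-5p: uGACUAGAucuacacucauuga
sfr-miR-279b-5p: uGACUAGAuuaucacuuauccu
sfr-miR-279c-5p: uGACUAGAuccauacucgucug

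Of the 22 positions, 13 were identical in all members, including the first 9. bmo-miR-279a and sfr-miR-279a-5p were the closest pair with 19 identical bases, and they differed by C11U, C20U and C21G, counted from 1 at the 5′ end of bmo-miR-279a. bmo-miR-279a and sfr-miR-279c-5p shared 18 bases and differed by C13U, A18G, C21U and A22G on the same count. The most distant pair, sfr-miR-279c-5p and sfr-miR-279b-5p, shared 14 bases. A messenger RNA site that pairs with the whole seed of any member would read UCUAGUC. No other of the 128 distinct sequences had this seed. Among the distinct sequences, 27 shared their seed with at least 1 other, in 9 groups of up to 6 sequences.

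The precursors are shown with the mature sequence in capitals, since its place in the hairpin sets which arm each member comes from.
bmo-miR-279a: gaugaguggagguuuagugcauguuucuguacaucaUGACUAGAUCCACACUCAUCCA
sfr-miR-279a-5p: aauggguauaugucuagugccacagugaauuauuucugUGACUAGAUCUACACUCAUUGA
sfr-miR-279b-5p: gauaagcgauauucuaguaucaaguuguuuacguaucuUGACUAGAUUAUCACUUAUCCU
sfr-miR-279c-5p: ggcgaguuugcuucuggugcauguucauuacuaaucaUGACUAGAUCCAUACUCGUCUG

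In all 4 precursors the mature sequence formed the 3′ end of the hairpin, so each was a product of the 3′ arm. The names of 3 members nevertheless end in 5p. This was not particular to the family, because 32 of the 60 distinct sequences with such a name (53.3%) lay at the 3′ end of their precursor. The names are kept here as the table gives them. The precursors were 58 to 60 nt long. When folded with RNAfold, each formed a single hairpin in which 17 or 18 of the 22 mature bases were paired. The computed folding energy was -25.2 kcal/mol for bmo-miR-279a, -22.7 for sfr-miR-279c-5p and -19.6 for both sfr-miR-279a-5p and sfr-miR-279b-5p. The share of G and C in the precursor was 43.1% for bmo-miR-279a and 44.1% for sfr-miR-279c-5p, and 36.7% for sfr-miR-279a-5p and 31.7% for sfr-miR-279b-5p.

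The 4 genes lay at 3 places in the genome assembly ZJU_Sfru_1.0. sfr-miR-279a-5p and sfr-miR-279c-5p formed a cluster on the plus strand of NC_049730.1, with precursors at 5694534 to 5694593 and at 5694748 to 5694806, separated by 154 bases. They were the only entries of the table on that chromosome. Another entry on the same strand within 200 bases, without overlap, was found for 15 of the 172 entries (8.72%), these 2 included. The precursor of bmo-miR-279a lay at 14785835 to 14785892 on the minus strand of NC_049713.1. Its nearest listed neighbour was the predicted Spodoptera_mature_52, 392121 bases away. The precursor of sfr-miR-279b-5p lay at 12851544 to 12851603 on the minus strand of NC_049731.1, and its nearest listed neighbour was bmo-miR-970-5p, 597324 bases away. No annotation of this assembly was used, so host genes and introns are not given.

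The family was abundant in every library. Levels are given as CPM, the count of a miRNA per 1000000 counts of its library. Libraries held 540739 to 1288083 counts, in which a sequence listed for more than 1 precursor is counted for each of them. With the 4 members summed, the family had 14536, 16637 and 17210 CPM in libraries 1, 2 and 3 labelled resistant, against 11560, 12559 and 13548 CPM in libraries 1, 2 and 3 labelled susceptible. On this scale the groups did not overlap, and the family averaged 16127 ± 1408 CPM in resistant against 12555 ± 994 CPM in susceptible libraries (SD, n = 3 each). A lack of overlap was common, at 50% of the 112 distinct sequences tested after the TMM scaling described below. With each distinct sequence counted once, the family held 2.22% ± 0.204 of the counts in resistant against 1.71% ± 0.126 in susceptible libraries (SD, n = 3 each). By mean CPM the members ranked 18 (bmo-miR-279a), 20 (sfr-miR-279a-5p), 21 (sfr-miR-279b-5p) and 23 (sfr-miR-279c-5p) among the 128 distinct sequences. Each member had 1516 to 6351 counts per library, which gives exact 95% intervals (Clopper-Pearson) of 2.46% to 5.06% of the value on either side. These intervals cover counting error only, as the reads carried no molecular identifiers.

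bmo-miR-279a, the paralog with the silkworm name, was the most abundant member on average and the most even over all 6 libraries. It had 4931, 5489 and 5357 CPM in libraries 1, 2 and 3 labelled resistant, against 4442, 4876 and 5227 CPM in libraries 1, 2 and 3 labelled susceptible. The groups overlapped, since susceptible library 3 lay above resistant library 1. Over all 6 libraries its coefficient of variation was 7.58%, the smallest of the 4 members. Within the resistant libraries it was 5.55%, also the smallest. Within the susceptible libraries it was 8.12%, above the 4.48% of sfr-miR-279c-5p and the 4.25% of sfr-miR-279b-5p.

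sfr-miR-279a-5p, the upstream member of the cluster, varied most. It had 3920, 5568 and 5696 CPM in libraries 1, 2 and 3 labelled resistant, against 2554, 2984 and 3610 CPM in libraries 1, 2 and 3 labelled susceptible. All resistant libraries were higher, but resistant library 1 lay much closer to susceptible library 3 than to the other two resistant libraries. Its coefficient of variation over the 6 libraries was 32.3%, with a highest value 2.23 times the lowest.

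sfr-miR-279c-5p, the downstream member of the cluster, was less abundant. It had 2530, 2715 and 3353 CPM in libraries 1, 2 and 3 labelled resistant, against 2227, 2188 and 2380 CPM in libraries 1, 2 and 3 labelled susceptible. The groups did not overlap, and resistant library 3 was the highest.

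sfr-miR-279b-5p, the paralog whose bases behind the seed differ most from the others, reached a similar level. It had 3155, 2865 and 2804 CPM in libraries 1, 2 and 3 labelled resistant, against 2337, 2510 and 2330 CPM in libraries 1, 2 and 3 labelled susceptible. Again the groups did not overlap, but here resistant library 1 was the highest, whereas it was the lowest of the resistant libraries for the other 3 members.

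**Figure D1:**
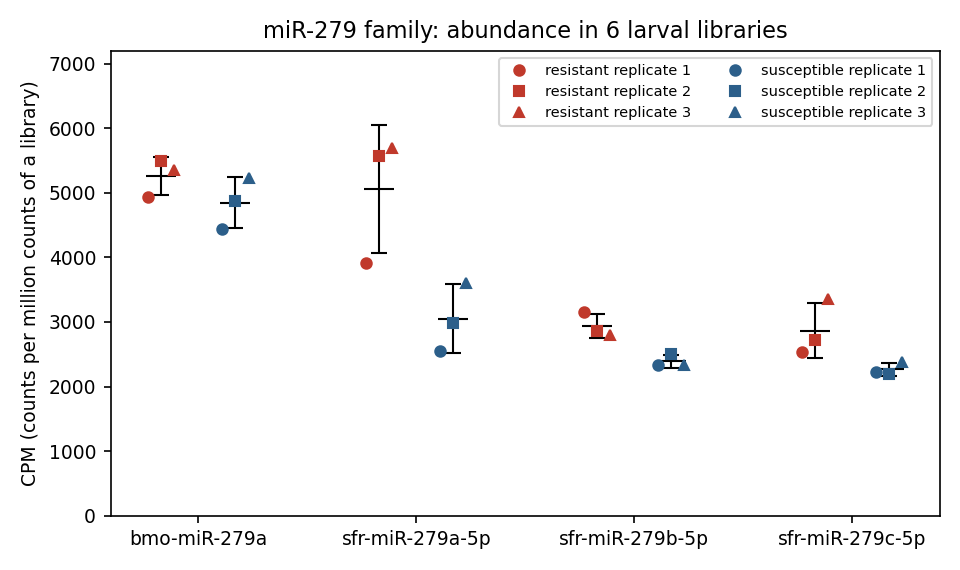
Abundance of the 4 miR-279 paralogs in CPM (counts per 1000000 counts of a library) in the 3 libraries labelled resistant (red, left of each pair) and the 3 labelled susceptible (blue, right), with 1 point per library and bars for the mean and SD of 3. The resistant libraries lie above the susceptible ones for sfr-miR-279a-5p, sfr-miR-279b-5p and sfr-miR-279c-5p, and the groups overlap for bmo-miR-279a. Among all 112 distinct sequences tested, the groups did not overlap for 50% after the TMM scaling described below.

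Over all 6 libraries the members fell into an abundant pair and a less abundant pair, less clearly so in the susceptible libraries. bmo-miR-279a and sfr-miR-279a-5p together held 60.9% to 66.5% of the family sum in resistant libraries, against 60.5% to 65.2% in susceptible ones. Within libraries, the log2 ratio of bmo-miR-279a to sfr-miR-279c-5p was 0.99 ± 0.17 (SD, n = 6) and that to sfr-miR-279b-5p was 0.93 ± 0.17, and bmo-miR-279a was higher in 6 of 6 libraries for both. The log2 ratio of sfr-miR-279a-5p to sfr-miR-279c-5p was 0.61 ± 0.28 (SD, n = 6) and that to sfr-miR-279b-5p was 0.55 ± 0.38, and sfr-miR-279a-5p was also higher in 6 of 6 libraries for both. These 4 differences gave p = 0.031 in an exact two-sided sign-flip test over the 6 libraries, the smallest p that 6 libraries allow (0.0469 after Benjamini-Hochberg adjustment over the 6 pairs). Within each of the 2 pairs the difference did not pass the test over all 6 libraries. bmo-miR-279a was above sfr-miR-279a-5p in 4 of 6 libraries (log2 ratio 0.38 ± 0.37, SD; exact sign-flip test, two-sided p = 0.125, adjusted p = 0.15), and the exceptions were resistant libraries 2 and 3. By strain label this ratio was 0.07 ± 0.23 in resistant against 0.68 ± 0.13 in susceptible libraries on the log2 scale (SD, n = 3 each), without overlap, so bmo-miR-279a was the higher one in all 3 susceptible libraries (difference -0.61, exact permutation test, p = 0.1, adjusted p = 0.3). In susceptible libraries sfr-miR-279a-5p lay on average nearer to the less abundant members than to bmo-miR-279a. Its log2 ratio to sfr-miR-279b-5p was 0.34 ± 0.26 in susceptible against 0.76 ± 0.39 in resistant libraries. That to sfr-miR-279c-5p was 0.42 ± 0.20 against 0.81 ± 0.21 (SD, n = 3 each; exact permutation test, adjusted p = 0.3 for both). sfr-miR-279b-5p was above sfr-miR-279c-5p in 4 of 6 libraries (log2 ratio 0.06 ± 0.20, SD; exact sign-flip test, two-sided p = 0.438, adjusted p = 0.438). Ligation and amplification can favour some small RNA sequences, so a ratio of counts between 2 miRNAs is not a ratio of molecules.

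The shares of the 2 abundant members did not overlap between the strain labels, but 3 libraries against 3 are too few for this to pass a permutation test. bmo-miR-279a held 33.9%, 33.0% and 31.1% of the family sum in libraries 1, 2 and 3 labelled resistant, against 38.4%, 38.8% and 38.6% in libraries 1, 2 and 3 labelled susceptible. The susceptible libraries were within 0.407 percentage points of each other, and the groups did not overlap. sfr-miR-279a-5p held 27.0%, 33.5% and 33.1% in libraries 1, 2 and 3 labelled resistant, against 22.1%, 23.8% and 26.6% in libraries 1, 2 and 3 labelled susceptible. Here the groups only just failed to overlap, and the exact 95% intervals of resistant library 1 (26.3% to 27.6%) and susceptible library 3 (25.9% to 27.4%) shared most of their range. The mean difference, resistant minus susceptible, was -5.93 percentage points for bmo-miR-279a and 7.01 for sfr-miR-279a-5p. Both gave p = 0.1 in an exact two-sided permutation test, the smallest p that 3 libraries against 3 allow, and an adjusted p of 0.2 over the 4 members. The shares of the less abundant members overlapped between the labels, at 16.3% to 19.5% in resistant against 17.4% to 19.3% in susceptible libraries for sfr-miR-279c-5p (exact permutation test, p = 0.8, adjusted p = 0.9), and at 16.3% to 21.7% in resistant against 17.2% to 20.2% in susceptible libraries for sfr-miR-279b-5p (exact permutation test, p = 0.9, adjusted p = 0.9). Exact 95% intervals of the shares reached 0.546 to 0.961 percentage points on either side. Shares within the family do not depend on how libraries are scaled to each other. They add up to the whole, so a lower share of bmo-miR-279a does not by itself mean a lower level. Its mean was 5259 CPM in resistant against 4848 CPM in susceptible libraries, with groups that overlapped.

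**Figure D2:**
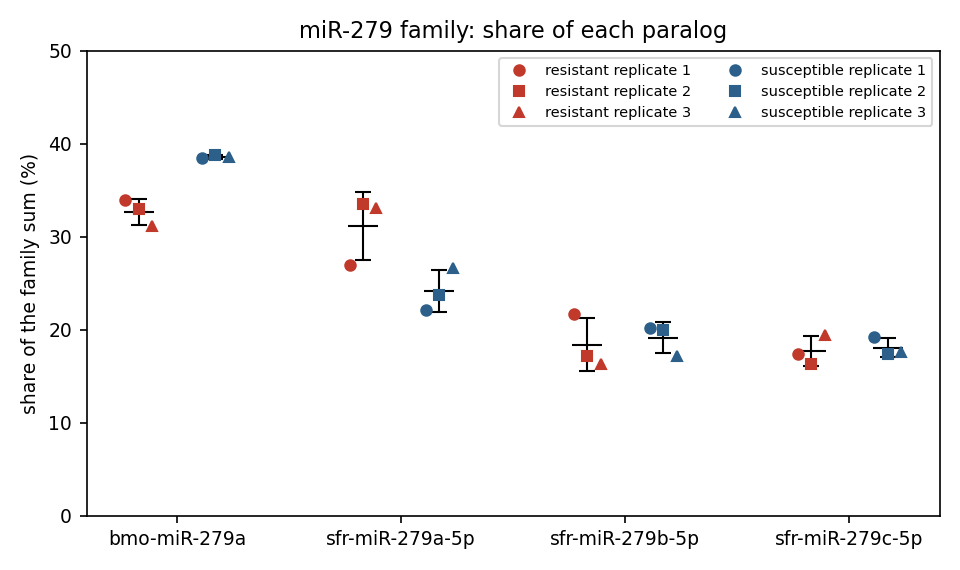
Share of the miR-279 family sum held by each paralog, in percent, in the 3 libraries labelled resistant (red, left of each pair) and the 3 labelled susceptible (blue, right), with 1 point per library and bars for the mean and SD of 3. bmo-miR-279a held 31.1% to 33.9% in resistant against 38.4% to 38.8% in susceptible libraries, and the shares of sfr-miR-279b-5p and sfr-miR-279c-5p overlap.

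The 2 clustered members were not counted at a fixed ratio. sfr-miR-279a-5p had 1.55, 2.05 and 1.70 times the counts of sfr-miR-279c-5p in libraries 1, 2 and 3 labelled resistant, against 1.15, 1.36 and 1.52 times in libraries 1, 2 and 3 labelled susceptible. The lowest resistant ratio was just above the highest susceptible one. On the log2 scale the difference, resistant minus susceptible, was 0.40, with a two-sided p of 0.1 in the exact permutation test, which cannot go lower here. It lay between 0.28 and 0.49 when each library was left out in turn.

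With TMM factors sfr-miR-279a-5p was higher in the libraries labelled resistant, subject to the doubt about the labels, and the other 3 members did not pass the test. The test was the quasi-likelihood test of edgeR on counts with TMM factors, which correct library sizes for a few dominant sequences. Its p-values were adjusted over the 152 entries tested (Benjamini-Hochberg), and a member was called at an adjusted p under 0.05. Of the 112 distinct sequences tested, 40 (35.7%) were called in either direction and 24 (21.4%) as higher, so 1 of 4 members is close to the share among all sequences. For sfr-miR-279a-5p the log2 fold change, resistant over susceptible, was 0.71 with a standard error (SE) of 0.15 (adjusted p = 0.00686), which is a 1.63-fold higher level with a 95% interval of 1.29 to 2.06, under a 2-fold difference at the estimate. sfr-miR-279c-5p differed by 0.31 ± 0.11 on the log2 scale (SE; adjusted p = 0.0561) and sfr-miR-279b-5p by 0.28 ± 0.11 (SE; adjusted p = 0.0799). bmo-miR-279a differed by 0.09 ± 0.10 on the log2 scale (SE; adjusted p = 0.467), with an interval of 0.920 to 1.24 on the fold scale. In TMM-scaled CPM the groups did not overlap for 3 of the 4 members, where they did not overlap for 50% of the 112 sequences. With TMM factors all 4 log2 fold changes were above 0, as were those of 60 of the 112 sequences (53.6%), whereas all 4 were below 0 when mapped reads were taken as library sizes. The median was 0.29 over the members and 0.03 over all 112. In RNA of whole larvae, fewer cells of a type and less of the miRNA per cell cannot be told apart.

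**Figure D3:**
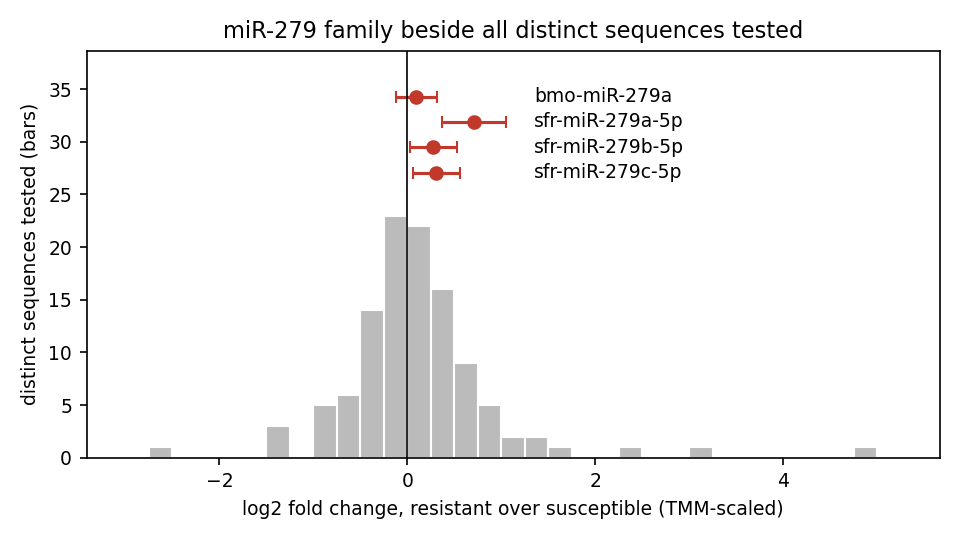
Log2 fold change of each miR-279 paralog, resistant over susceptible, from edgeR with TMM scaling (red points with 95% intervals, placed above the bars for legibility), over a histogram of the log2 fold changes of the 112 distinct sequences tested (grey bars, number of sequences on the vertical axis). The interval of bmo-miR-279a crosses 0, and sfr-miR-279a-5p has the largest value of the family, at 0.71.

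The sign of each member's log2 fold change depended on the scaling. When library sizes were set to mapped reads, the median of all sequences moved to -0.66 and the log2 fold change of sfr-miR-279a-5p to -0.03 (edgeR, adjusted p = 0.959), so its call was lost. Of the 16 alternatives tried, this was the only one without that call. With upper-quartile factors the median of all sequences moved to -0.14, and sfr-miR-279a-5p still passed (log2 fold change 0.52, adjusted p = 0.0396), while bmo-miR-279a fell on the other side of 0 (log2 fold change -0.09). A change of library sizes moves all miRNAs by about the same amount. A distance from the median that stays alike across scalings is therefore built in, and is no test of how firm a member's call is. sfr-miR-279c-5p passed the test when each distinct sequence was counted once (adjusted p = 0.0487), and sfr-miR-279b-5p passed without resistant replicate 3 (adjusted p = 0.0496).

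**Figure D4:**
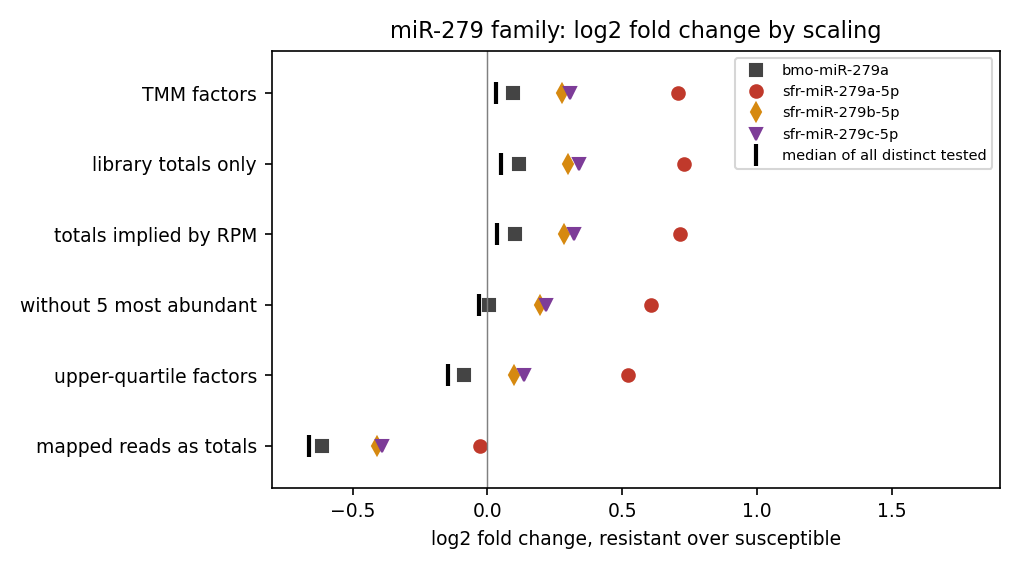
Log2 fold change of the 4 miR-279 paralogs, resistant over susceptible (horizontal axis), under 6 ways of scaling the libraries (vertical axis), with a black line for the median of all distinct sequences tested in that setting. Members and median shift together, as a change of library sizes makes them, and the median lies at -0.66 when mapped reads are taken as library sizes and at 0.03 with TMM factors.

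The members tracked one another to differing degrees over the 6 libraries. As a description, the log2 CPM of sfr-miR-279a-5p had a Pearson's r of 0.90 with bmo-miR-279a (Spearman's rho 0.89) and of 0.89 with its cluster partner sfr-miR-279c-5p (rho 0.94). sfr-miR-279b-5p followed the others less closely, with r = 0.41 for bmo-miR-279a (rho 0.37), 0.55 for sfr-miR-279c-5p (rho 0.54) and 0.64 for sfr-miR-279a-5p (rho 0.60). The 6 points share the strain labels and the library totals, so these values carry no test.

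Among 109 other distinct sequences with a mean of at least 10 CPM, the ones most like the family sum over the 6 libraries were bmo-miR-276-5p (r = 0.97, rho 0.94), sfr-miR-10460-5p (r = 0.94, rho 0.94) and bmo-miR-9a-5p (r = 0.94, rho 0.94). The measure was the correlation of log2(CPM + 1), and its median over the 109 sequences was 0.30. The 3 named did not stand apart, since 11 of the 109 had r of 0.9 or more. By rho, bmo-miR-305-5p (r = 0.93) and sfr-miR-2766-5p (r = 0.90) lay above them. The family sum itself followed sfr-miR-279a-5p most closely (r = 0.997), the member with the widest spread. bmo-miR-276-5p had 28931, 33069 and 36818 CPM in libraries 1, 2 and 3 labelled resistant, against 24460, 25879 and 29096 CPM in libraries 1, 2 and 3 labelled susceptible. Like the family sum, it was lowest in susceptible library 1 and highest in resistant library 3. sfr-miR-10460-5p ranged far more widely than the family, with 1879, 2675 and 2108 CPM in libraries 1, 2 and 3 labelled resistant, against 408, 850 and 933 CPM in libraries 1, 2 and 3 labelled susceptible. It is one of the miRNAs for which the sign by label is the reverse of the printed one.

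miRNAs known from the insect nervous system and sense organs give the setting in which miR-279 is best known. Of 8 such sequences, 3 were higher in the libraries labelled resistant, none was lower and 5 did not pass, beside 21.4% of all sequences called as higher. The tally depended on the scaling, with 1 higher (bmo-miR-9a-5p) and 1 lower (bmo-miR-263a-5p, which protects bristle cells in Drosophila) under upper-quartile factors, and 0 higher and 1 lower (bmo-miR-263a-5p, log2 fold change -1.07, edgeR adjusted p = 0.0315) with mapped reads as library sizes. With DESeq2, 1 was higher and 0 were lower. Of all distinct sequences, 29.5% were called in either direction under upper-quartile factors, 28.8% with mapped reads and 20.3% with DESeq2. The median log2 fold change of the 8 was 0.14, and the 5 that did not pass lay between -0.36 and 0.49. bmo-miR-9a-5p, which in Drosophila secures the number of sense organ precursors, differed by 0.49 ± 0.09 on the log2 scale (SE; adjusted p = 0.00459). bmo-miR-276-5p, which acts in olfactory memory in Drosophila, differed by 0.29 ± 0.09 on the log2 scale (SE; adjusted p = 0.0430). sfr-miR-7-5p, which acts in photoreceptor differentiation in Drosophila, differed by 0.93 ± 0.31 on the log2 scale (SE; adjusted p = 0.0461), from as few as 10 counts in a library and with groups that overlapped. The calls of bmo-miR-276-5p and sfr-miR-7-5p held in 4 of 16 alternatives each, and that of bmo-miR-9a-5p in 15 of 16. bmo-miR-124, a miRNA of neurons, averaged 52.4 ± 13.4 CPM in resistant against 53.3 ± 5.24 CPM in susceptible libraries (SD, n = 3 each), a difference of -0.02 ± 0.24 on the log2 scale (SE; adjusted p = 0.981). bmo-miR-133, a miRNA of muscle, averaged 2393 ± 680 CPM in resistant against 2038 ± 239 CPM in susceptible libraries (SD, n = 3 each), so markers of both tissues were present in these whole-larva libraries. Their part in the values of the miR-279 family was not tested.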

How the data were processed

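Per the study's methods, reads of 50 bp were trimmed by the authors with cutadapt, and those under 18 nt were dropped. ZJU_Sfru_1.0 was the reference for mapping, and miRDeep2 with precursors from miRBase gave the counts of mature miRNAs. The deposited table gives the authors' raw counts of 172 entries. It also gives the authors' RPM, scaled to totals other than the sums of the counts, and a signal that the deposited header names as normalized with DESeq2. RPM and normalized signal served only as alternatives. Copies of a sequence carry the same counts. Mature and precursor sequences came from the study's supplementary tables and positions from the deposited table, written with 1-based starts.

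CPM used the sum of each count column (540739 to 1288083). Counts were tested with edgeR 4.0.16 in R 4.3.3 (TMM, filterByExpr, estimateDisp, glmQLFit and glmQLFTest, with a single term for strain, Benjamini-Hochberg over 152 entries). The 95% interval of a fold change was taken from its SE and the t distribution. Exact permutation tests used Python 3.11.15, and hairpins were folded with RNAfold 2.7.2. Named miRNAs were the members, the 3 sequences most like the family sum among those with a mean of at least 10 CPM, and the list of nervous system miRNAs. Members and lists were chosen with earlier results of these data known. Alternatives were DESeq2 1.42.0, other scalings (mapped reads per library taken from the study among them), filters, copies counted once, a replicate block and leaving out each library. The edgeR procedure was tested on simulated tables of distinct sequences, which did not cover repeated entries or the choice of scaling.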

Additional observations from a re-analysis of the deposited data

How the results depend on the processing

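Of the 4 members, 1 was called in the comparison of strains, beside 35.7% of all distinct sequences tested. The number called was 0 with library sizes set to mapped reads, 2 with each distinct sequence counted once and 3 with a replicate block, and ranged from 1 to 2 when each library was left out. The shares of all distinct sequences called in these settings were 28.8%, 33.0%, 33.9% and 16.8% to 25.7%, in the same order. The labels do not say whether libraries of the same replicate number were paired, and so few libraries cannot decide it. The deviations of the libraries numbered 1 had a correlation of 0.04, those numbered 2 of 0.28 and those numbered 3 of 0.27. Between libraries of different numbers the correlations were -0.36 to 0.13. With the block, sfr-miR-279c-5p (log2 fold change 0.30) and sfr-miR-279b-5p (0.27) both had an adjusted p of 0.0415 (edgeR). With mapped reads the log2 fold changes were -0.61 for bmo-miR-279a, -0.39 for sfr-miR-279c-5p, -0.027 for sfr-miR-279a-5p and -0.41 for sfr-miR-279b-5p. bmo-miR-279a also lay below 0 with upper-quartile factors (-0.087), without a filter on low counts (-0.014) and with at least 10 counts required in every library (-0.021), and it passed the test in none of the settings (adjusted p 0.161 to 0.971). The cause was not tested. With DESeq2, 1 member was called as well, beside 20.3% of all distinct sequences.

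Levels moved with the total they are set against, and not the order of their means. Over the total of distinct sequences, the mean CPM in resistant and susceptible libraries was 7239 and 6608 for bmo-miR-279a, 6969 and 4155 for sfr-miR-279a-5p, 4048 and 3261 for sfr-miR-279b-5p, and 3949 and 3088 for sfr-miR-279c-5p. The deposited RPM gave 3446 and 3211, 3314 and 2020, 1927 and 1585, and 1876 and 1500 for the same members. The difference in share, resistant minus susceptible, ranged over the left-out libraries between -1.22 and 0.360 percentage points for sfr-miR-279c-5p and between -2.38 and 0.327 for sfr-miR-279b-5p, while its sign held for bmo-miR-279a and sfr-miR-279a-5p. With 5 libraries no sign-flip test can go below 0.0625, so 0 pairs of paralogs pass in each such setting, compared with 4 of 6 pairs in all libraries.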
